A study of Mus musculus with 28 samples.

Results

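The genes described here are 10 members of the Notch signalling pathway, chosen by symbol: the ligands Jag1, Jag2, Dll1 and Dll4, the receptors Notch1, Notch2 and Notch3, the DNA-binding partner Rbpj and the target genes Hes1 and Hey1. They are 10 of the 43280 gene rows measured, and each was found once. Their RNA was read in Sertoli cells, the somatic cells of the seminiferous tubule that support germ cells, at 5 stage groups of the seminiferous cycle, and in whole testes of NANOS2 KO mice on 9 days. Notch1 varied most between stage groups, with a mean of 119 CPM (counts per 1000000 counts of the library) at stages VII-VIII and 6.08 CPM at stages XI-XII, while Jag1 was lowest where Notch1 was highest.

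All mice had received WIN 18,446, which blocks the synthesis of retinoic acid, for 7 days and an injection of retinoic acid on the next day, a treatment that synchronises spermatogenesis, and were kept until 42 to 50 days after the injection. The NANOS2 KO mice (CD1 background) gave 18 libraries, 2 for each day from 42 to 50; they were whole testes, although the labels name Sertoli as their cell type, and the labels describe them as germ cell-deficient. The sorted libraries came from red fluorescent cells of RFP heterozygote, Amh-Cre-positive mice, in which the promoter of the Sertoli gene Amh drives Cre; their strain is labelled as coming from C57BL/6 x 129s4/SvJae or, for replicate 1 of group A, from a C57BL/6 x Amh-Cre background. These 10 libraries form 5 groups of 2, named for the stages most enriched: stages XI-XII for A, I-III for B, IV-VI for C, VII-VIII for D and IX-X for E. The day on which each group was taken is not given beyond the range of 42 to 50. No label states whether the 2 replicates of a group come from separate animals, and p-values measure only the spread between these libraries, which may be technical.

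Notch receptors are cut when a ligand on a neighbouring cell binds them, and the freed intracellular part enters the nucleus, joins RBPJ on DNA and switches on genes such as Hes1 and Hey1. HES and HEY proteins are themselves repressors. In the mouse testis, germ cells carry JAG1 and Sertoli cells carry NOTCH1, and HES1 and HEY1 made in Sertoli cells repress Gdnf, a growth factor of spermatogonial stem cells, and Cyp26b1, an enzyme that degrades retinoic acid. Notch3 and Dll4 are best known from vessel walls and endothelium.

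The sequences shown are those just upstream of a RefSeq start of the 3 members that passed the test at stages VII-VIII, since Jag1 moved against Notch1 and Notch2 there. They come from RefSeq (GRCm38.p6), in the direction of transcription, and were taken from 250 bases before the RefSeq start to the base before any exon of the gene in GENCODE M21. Capitals mark 2 motifs searched on both strands that HES and HEY proteins are known to bind, CACGCG and CACNAG. The Jag1 stretch is chr2:137116645-137116770 (minus strand), the Notch1 stretch is chr2:26503825-26504072 (minus strand) and the Notch2 stretch is chr3:98013288-98013526 (plus strand). GENCODE M21 places Notch1 at chr2:26457903-26516663, so the Notch1 stretch lies inside the annotated gene, which starts farther upstream.
Jag1: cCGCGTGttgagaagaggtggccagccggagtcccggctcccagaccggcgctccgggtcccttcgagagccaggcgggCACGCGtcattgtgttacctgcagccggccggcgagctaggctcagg
Notch1: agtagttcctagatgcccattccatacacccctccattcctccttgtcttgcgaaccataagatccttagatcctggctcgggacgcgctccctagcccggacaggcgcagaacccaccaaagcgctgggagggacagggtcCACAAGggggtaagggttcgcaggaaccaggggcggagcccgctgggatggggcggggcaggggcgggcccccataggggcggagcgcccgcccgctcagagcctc
Notch2: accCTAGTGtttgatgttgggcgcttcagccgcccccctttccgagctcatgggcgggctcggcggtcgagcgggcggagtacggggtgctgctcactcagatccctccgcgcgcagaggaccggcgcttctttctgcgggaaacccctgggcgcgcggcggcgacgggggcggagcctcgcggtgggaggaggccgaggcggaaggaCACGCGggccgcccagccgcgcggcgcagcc

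CACGCG began 249 and 171 bases before the RefSeq start of Jag1 and 42 bases before that of Notch2, and of 32851 RefSeq windows of 250 bases 7.62% hold it. CACNAG began 108 bases before the start of Notch1 and 247 bases before that of Notch2, and 36.7% of windows hold it. No match of either motif overlaps another in these stretches. The E-box CACGTG was in none of the members' windows and in 6.02% of all windows. RefSeq windows were found for 8 of the 10 members, and Hes1 and Hey1 were not matched. CACGCG was also in windows of Dll1 and Dll4, and CACNAG in those of Dll4 and Notch3, members with too few counts to be tested between stages. Windows of Jag2 and Rbpj held neither motif. The RBPJ core TGGGAA was found in windows of Rbpj and of no other matched member, against 21.6% of all windows. Jag1, Notch1 and Notch2 have GC contents of 57.2%, 66.0% and 72.0% over the 250 bases, against a median of 52.4% over all windows. These matches describe letters and not binding.

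Library totals were 1336742 to 4370138 counts in NANOS2 KO testes and 1901743 to 5279746 in sorted cells, so that 3 counts, the limit that a count of 0 allows, equal 0.686 to 2.244 CPM and 0.568 to 1.578 CPM (counting error only). The 14 Sertoli markers summed to 13900 to 16100 CPM in NANOS2 KO testes and to 6500 to 11200 CPM in sorted cells, with none at 0. Clu alone had 9900 to 11900 CPM in NANOS2 KO testes and 2870 to 6510 CPM in sorted cells. The list did not move as a whole, since 6 of the 14 were called higher and 5 lower in NANOS2 KO testes. The sorted libraries also held germ cell transcripts, with 545 to 903 CPM over 8 spermatocyte markers and 2070 to 12700 CPM over 6 elongating spermatid markers, against at most 2.55 and 2.97 CPM in NANOS2 KO testes. The knockout testes held the other somatic cells of the testis, with 2020 to 5860 CPM over 7 Leydig markers against 14.0 to 50.2 CPM in sorted cells. Day 49 replicate 1 of the NANOS2 KO stands apart, with 0.715% of its counts from mitochondrial genes against 2.335% to 3.242% in the other 17, and with the highest sum of stroma markers. In sorted cells the mitochondrial share spread more widely, from 4.61% in group D replicate 2 to 12.517% in group D replicate 1. In all these libraries fewer cells of a type and less RNA per cell cannot be told apart.

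Divided by the length of the annotated exons, Notch1, Notch2 and Hes1 stood above the ligands in NANOS2 KO testes. The mean levels there were 16.2 ± 2.30 CPM per kb for Notch2, 10.2 ± 1.59 for Notch1 and 7.28 ± 1.81 for Hes1 (SD, n = 18), followed by Jag1 at 2.68 ± 0.492, Rbpj at 1.66 ± 0.309 and Notch3 at 1.65 ± 0.440 CPM per kb. Jag2 (0.840 ± 0.223), Dll4 (0.756 ± 0.382), Hey1 (0.191 ± 0.153) and Dll1 (0.127 ± 0.124 CPM per kb) were lowest. The ranges of mean ± SD overlapped for Notch1 and Hes1, for Rbpj and Notch3, for Jag2 and Dll4 and for Hey1 and Dll1. In sorted cells Hes1 led at 11.5 ± 3.59 CPM per kb (SD, n = 10), ahead of Notch2 at 6.25 ± 2.64, Jag1 at 4.48 ± 2.04, Notch1 at 2.97 ± 3.32, Jag2 at 2.30 ± 1.73 and Rbpj at 1.38 ± 0.628 CPM per kb. Hey1 (0.959 ± 0.240), Dll4 (0.249 ± 0.187), Notch3 (0.171 ± 0.106) and Dll1 (0.0794 ± 0.0729 CPM per kb) were lowest there. In that order Hey1 and Dll4 alone were neighbours whose ranges of mean ± SD did not overlap. These means pool stage groups that differ, and the order of Jag1 and Notch1 turned between them. Notch1 had 8.37 ± 1.58 CPM per kb in group D and Jag1 1.43 ± 0.578, while in group A Notch1 had 0.427 ± 0.148 and Jag1 6.22 ± 2.17 CPM per kb (SD, n = 2 each).

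The comparison of the 5 stage groups asks whether these genes change with the cycle in Sertoli cells that have germ cells around them. The F test over the groups called 2 of the 7 members tested, Notch1 and Jag1, at a Benjamini-Hochberg adjusted p under 0.05 over 14331 genes (edgeR quasi-likelihood), against a background of 8.09% of all genes. Dll1, Dll4 and Notch3 had too few counts to pass the expression filter. Set against the mean of the other groups, group D called 3 of 7 members, Notch1 and Notch2 higher and Jag1 lower, where 8.62% of all genes were called, 4.36% higher and 4.26% lower. Groups A, B, C and E called 0 of 7 members each, with backgrounds of 1.67%, 0.0419%, 2.66% and 0.523%. At an unadjusted p under 0.05 those groups had 3, 1, 1 and 0 members, and DESeq2 called 1 member in A and 0 in the others.

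**Figure D1:**
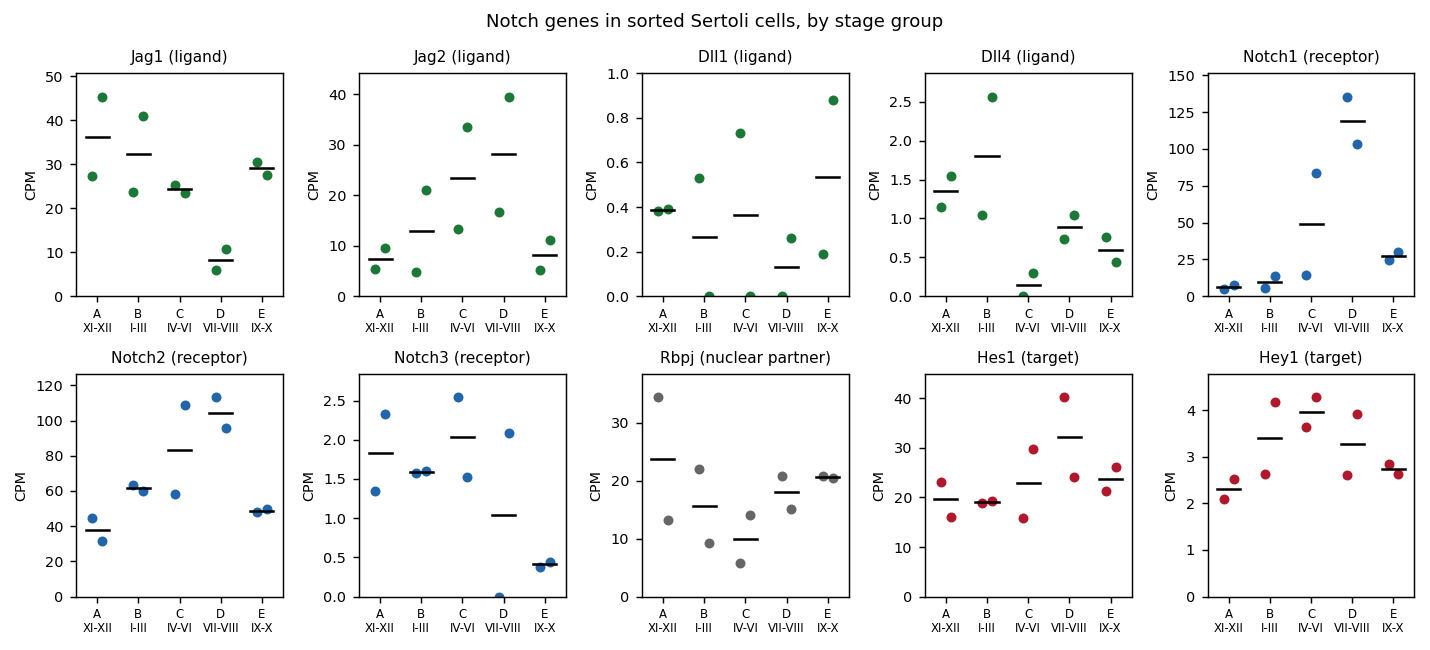
Level of the 10 Notch genes in sorted Sertoli cells, in CPM on the y axis (each panel has its own scale from 0), by stage group on the x axis; points are the 2 libraries of a group and bars their mean. Notch1 reaches 135.1 and 103.2 CPM in group D, Jag1 falls to 6.0 and 10.7 CPM there, and the 2 group C libraries lie far apart for Notch1.

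Among the ligands, Jag1 was measured at 27.3 and 45.2 CPM in group A, 23.7 and 41.0 in B, 25.4 and 23.5 in C, 6.0 and 10.7 in D and 30.5 and 27.7 in E. Both group D libraries lay below all 8 others, which spanned 23.5 to 45.2 CPM. Jag1 fell in group D relative to the other groups, with a log2 fold change of -1.87 (SE 0.37, adjusted p = 0.00695, edgeR quasi-likelihood). The adjusted p over the 5 groups was 0.0379. The D call was lost without group D replicate 1 (log2 fold change -1.54, adjusted p = 0.127, the highest of its 15 alternatives), and the call over all groups was lost without either library of D or E or without group C replicate 1 (adjusted p 0.0533 to 0.27).

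The libraries of group D also held the lowest sums of elongating spermatid markers, in the direction of Jag1, but not of spermatocyte or round spermatid markers. The 6 elongating spermatid markers summed to 2070 and 2880 CPM in D and to 5660 to 12700 CPM in the other groups, with 0 of the 6 at 0 CPM throughout D. The 8 spermatocyte markers summed to 742 and 673 CPM in D and to 545 to 903 CPM in the others. Single spermatocyte markers moved both ways in D by edgeR quasi-likelihood. Ccna1 fell (log2 fold change -2.81, adjusted p = 0.0138) and Piwil1 rose (1.37, adjusted p = 0.0127). The 6 macrophage markers summed to 147 and 160 CPM in D, with 2 of them at 0 in both libraries, and to 218 to 400 CPM in the other groups. Aif1 and Mrc1 carry that sum, while Csf1r, Cd68, Emr1 and C1qa stayed at or below 2.24 CPM in every sorted library, and Aif1 itself had 4.92 to 12.1 CPM in NANOS2 KO testes, which hold Csf1r at 116 to 197 CPM, and at least 48.0 CPM in sorted cells. The part of these cells in the level of Jag1 was not tested.

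Jag2, the other Jagged ligand, had 5.3 and 9.5 CPM in group A, 4.7 and 21.1 in B, 13.4 and 33.5 in C, 16.8 and 39.5 in D and 5.3 and 11.2 in E. In groups B, C, D and E the libraries of a group differed by over 2-fold, replicate 2 was the higher in all 5 groups, and D overlapped B and C. The log2 fold change of group D against the others was 1.22 (SE 0.47, adjusted p = 0.138), which missed the threshold. It passed under 3 of its 15 alternatives, among them no expression filter (adjusted p = 0.0059) and the fit without group B replicate 2 (log2 fold change 1.60, adjusted p = 0.0437), and over all of them the adjusted p ran from 0.0059 to 0.826.

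The Delta ligands were near the limit of detection. Dll4, the endothelial ligand, had 37 counts over the 10 sorted libraries, or 0.960 ± 0.721 CPM (SD, n = 10), and its highest values were 2.56 CPM in group B replicate 2 and 1.55 CPM in group A replicate 2. Group C had 1 count of Dll4 in all and the other groups 6 to 14, and no difference was tested at this depth. Dll1 had 13 counts in sorted cells, from 0 to 4 per library.

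Among the receptors, Notch1 rose most. It had 4.6 and 7.6 CPM in group A, 5.3 and 13.8 in B, 14.5 and 83.5 in C, 135.1 and 103.2 in D and 24.4 and 30.1 in E. Both D libraries lay above all others, both A libraries lay below those of C, D and E, and the C libraries lay on either side of those of E. The log2 fold change of D against the other groups was 2.78 (SE 0.42, adjusted p = 0.00156, edgeR quasi-likelihood), and the mean in D was 19.6 times that in A. The adjusted p over the 5 groups was 0.00606. Neither call was lost when any 1 library was left out (log2 fold changes 2.56 to 3.23, highest adjusted p 0.0423 and 0.0498).

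In group A the log2 fold change of Notch1 was -2.49 (SE 0.59, adjusted p = 0.0559), which missed the threshold. It was called under 7 of the 15 alternatives, among them DESeq2 (-2.46, adjusted p = 1.31e-04) and the fit without group C replicate 1 (-2.66, adjusted p = 0.00632), with adjusted p from 4.39e-08 to 0.179 over them. In group C the value was 1.24 (SE 0.45, adjusted p = 0.201), and it rests on 1 library. Without group C replicate 1 it was 1.99 (adjusted p = 0.0214), and without group C replicate 2 it was -0.59, with adjusted p from 0.00169 to 0.565 over the alternatives.

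Notch2, a close relative of Notch1, had 44.7 and 31.4 CPM in group A, 63.6 and 59.9 in B, 58.0 and 109.1 in C, 113.2 and 95.9 in D and 47.9 and 49.8 in E. The D libraries lay above those of A, B and E and overlapped those of C. Notch2 rose in group D by a log2 fold change of 0.87 (SE 0.25, adjusted p = 0.0456), a smaller change than that of Notch1. The call was lost in 6 of the 10 fits that leave out a library, those without either library of B, D or E (adjusted p 0.0659 to 0.309). It was also lost with libraries scaled by their Sertoli markers (0.46, SE 0.30, adjusted p = 0.358), a scaling added after the data were seen that kept the D calls of Notch1 (2.41, adjusted p = 1.98e-04) and Jag1 (-2.32, adjusted p = 0.00219) and moved the median of all genes in D to -0.41, against 0.04.

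Notch3 stood at 0 to 2.54 CPM in sorted cells, 51 counts over 10 libraries, and no stage difference was tested at these counts.

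Endothelial cells also express Notch receptors, and their markers were high in the libraries in which Notch1 was highest. The 10 endothelial markers summed to 29.4 and 33.7 CPM in D, against 9.55 and 12 in A, 15.2 and 19.9 in B, 18.1 and 33.5 in C and 12.9 and 14.0 CPM in E. Of the 6 that passed the filter, Tek (log2 fold change 3.12, adjusted p = 0.00176) and Cdh5 (1.80, adjusted p = 0.0123) rose in D, while Egfl7 (0.06), Eng (0.25), Flt1 (-1.14) and Kdr (1.79) did not pass. Pecam1 stayed at 0 to 2.61 CPM in sorted cells, and 0 of the 10 markers were at 0 throughout D. The 14 Sertoli markers summed to 10900 and 11000 CPM in D and to 6500 to 11200 CPM in the other groups, with group C replicate 1 lowest and replicate 2 highest, the order of Notch1 in those libraries. Leydig markers, low in sorted cells, summed to 35.4 and 50.2 CPM in D and to 14.0 to 36.9 CPM in the other groups, with Lhcgr and Insl3 at 0 in every sorted library. Of the 4 Leydig markers tested Hsd3b1 (log2 fold change 2.54, adjusted p = 0.0194) and Hsd17b3 (3.16, adjusted p = 0.0378) rose in D. The 6 round spermatid markers summed to 199 and 333 CPM in D and to at most 311 CPM in the others, with 0 of the 6 at 0 in any sorted library, and Izumo1 (1.61, adjusted p = 0.0197) and Catsper3 (1.93, adjusted p = 0.0176) rose in D. The part of any of these in the level of Notch1 was not tested.

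Rbpj, which every canonical Notch signal needs, had 34.4 and 13.2 CPM in group A, 22.1 and 9.3 in B, 5.8 and 14.0 in C, 20.8 and 15.2 in D and 20.8 and 20.4 in E. The groups overlapped, and the replicates of A lay farther apart than any pair of group means. Its log2 fold change in group D was 0.08 (SE 0.43, adjusted p = 0.947), and over the 5 groups its adjusted p was 0.581.

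The target Hes1 had 23.1 and 16.1 CPM in group A, 18.9 and 19.2 in B, 16.0 and 29.9 in C, 40.2 and 24.0 in D and 21.2 and 26.1 in E. Its highest library was in D, but the other D library lay within the range of C and E, and the log2 fold change of 0.55 (SE 0.30, adjusted p = 0.31) missed the threshold. The target Hey1 had 2.10 to 4.27 CPM in sorted cells, 5 to 15 counts a library, and a log2 fold change of 0.08 in D (SE 0.43, adjusted p = 0.947).

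**Figure D2:**
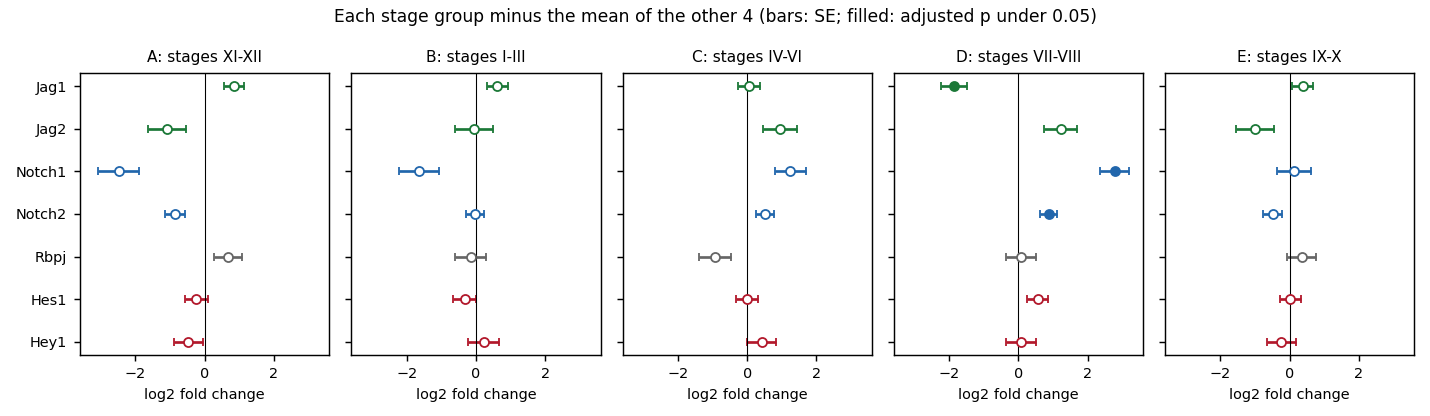
Log2 fold change (x axis) of the 7 members tested (rows), each stage group against the mean of the other 4 in its own panel; bars are 1 SE and filled points have an adjusted p under 0.05 (edgeR quasi-likelihood). The only filled points are Jag1 (-1.87), Notch1 (2.78) and Notch2 (0.87) in group D.

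The median log2 fold change of the 7 members tested was 0.55 in group D, against 0.04 over all genes, and it was -0.47 in A, -0.06 in B, 0.42 in C and 0.02 in E. The ratio of Notch1 to Jag1 counts was 0.168 and 0.167 in A, 0.222 and 0.336 in B, 0.571 and 3.56 in C, 22.7 and 9.63 in D and 0.801 and 1.09 in E. This ratio was formed after the values of both genes were known, so it describes these libraries only.

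Over the 10 sorted libraries the log2 CPM of Notch1 ran with that of Jag2 (Pearson r = 0.74), Notch2 (0.79) and Hes1 (0.73), against that of Jag1 (-0.72), and not with that of Rbpj (-0.10). The libraries share stage groups, so these are descriptions with no p. Notch1 was compared with 9810 genes whose mean log2 CPM reached 3, leaving out unnamed clones, ribosomal protein genes and date-like symbols. The 5 of them most like Notch1 were Chit1 (r = 0.99), Tubb6 (0.99), Fam19a5 (0.98), Slc7a4 (0.98) and Mfge8 (0.98). Slc7a4 averaged 465 CPM in D and 177 in A, and Mfge8, a bridge between dying cells and the cells that engulf them, 471 and 122 CPM. The 3 genes that ran most against Notch1 were Fam60a, Rab28 and Naa30 (r = -0.96 each).

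Outside the 10 members, 77 further genes of the pathway were listed, of which 59 could be tested in sorted cells. The F test over stages called 6 of the 59 and the comparison of group D called 7, 3 higher and 4 lower, with a median log2 fold change of 0.08 against 0.04 over all genes. These counts stand beside backgrounds of 8.09% and 8.62%, and no direction was shared by the list. Of the 17 genes that process ligands and receptors, Mib2, a ubiquitin ligase that acts on ligands, was higher in D (log2 fold change 1.10, SE 0.27, adjusted p = 0.0217), and Aph1b, a subunit of the gamma-secretase that cuts the receptor, was lower (-2.26, SE 0.50, adjusted p = 0.013), with 3.75 ± 0.493 CPM in D and 21.7 ± 13.6 in A (SD, n = 2 each). Among the regulators of receptor turnover, Dtx3, of the Deltex family, fell (-0.91, SE 0.26, adjusted p = 0.0457).

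Of the other targets, Cdkn1a, a brake on the cell cycle, rose in D to 232 ± 17.6 CPM, against 98.4 ± 18.6 in A (log2 fold change against all other groups 1.18, SE 0.32, adjusted p = 0.0386). Heyl, a relative of Hey1, rose in D by 2.04 (SE 0.59, adjusted p = 0.0487), with 25 counts in the 2 D libraries and 3 in those of A; it is below the expression level set for naming genes and was picked after its value was seen. The F test over the groups called Cyp26b1, Tle2, Nfkb2 and Ccnd1. It also called Dtx3 and Nrarp, which fall outside the rule for naming genes in that test. Nrarp is below the expression level of that rule, with 79 counts over the 10 sorted libraries and 1 to 23 in each.

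The 2 Sertoli genes that HES and HEY proteins are known to repress were both low in group D. Cyp26b1 averaged 56.8 ± 5.89 CPM in A, 127 ± 55.9 in B, 146 ± 41.6 in C, 27.0 ± 6.12 in D and 23.8 ± 0.405 in E (SD, n = 2 each). It rose in group C (log2 fold change 1.63, adjusted p = 0.0034) and fell in D (-1.42, adjusted p = 0.01) and in E (-1.64, adjusted p = 0.0364). Gdnf had 6.7 and 5.8 CPM in A, 6.8 and 9.0 in B, 2.5 and 10.7 in C, 1.1 and 2.1 in D and 4.4 and 3.7 in E. Both D libraries lay below all others, but the log2 fold change of -1.89 (SE 0.60, adjusted p = 0.0683) missed the threshold.

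**Figure D3:**
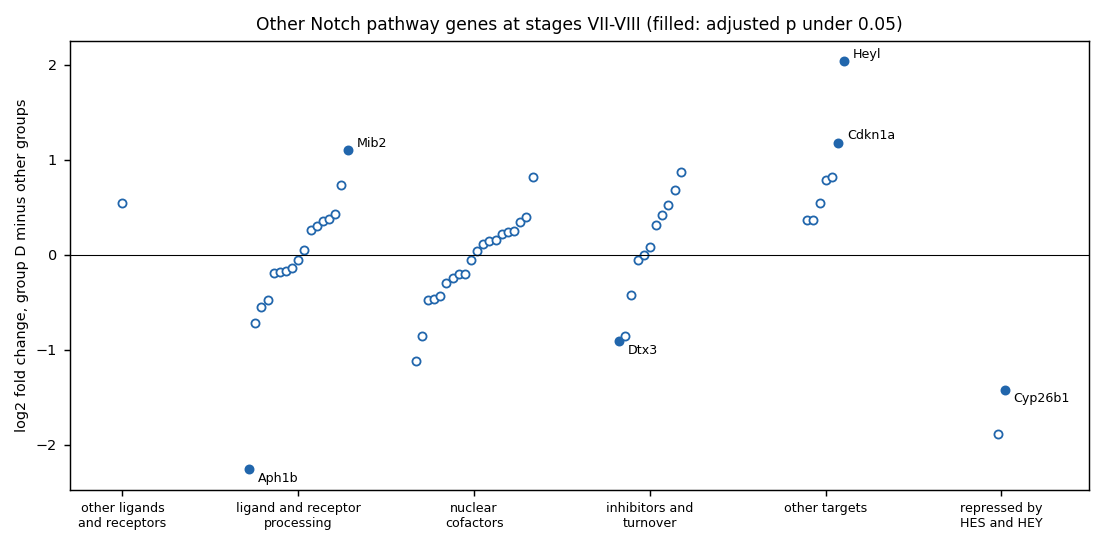
Log2 fold change of group D against the other groups (y axis) for 58 of the 59 further pathway genes tested, in 6 lists along the x axis; filled points have an adjusted p under 0.05 and are named. Aph1b lies at -2.26, Cyp26b1 at -1.42, Cdkn1a at 1.18 and Heyl at 2.04, and most genes lie within 1 of 0.

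In NANOS2 KO testes the question was whether the genes change from day 42 to day 50, about the length of 1 cycle, when germ cells are missing. Of the 8 members tested, 0 were called by the F test over days (background 0.582% of 13065 genes), by a straight line over days (0.857%) or by a wave with a period of 8.6 days (0.0%). The edgeR quasi-likelihood tests had 0, 1 and 0 members at an unadjusted p under 0.05, and DESeq2 called 0 members in each. Dll1 and Hey1 were too low to be tested. Without day 49 replicate 1, 0 members were called either, while the genes called over days numbered 156, against 76 with it.

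**Figure D4:**
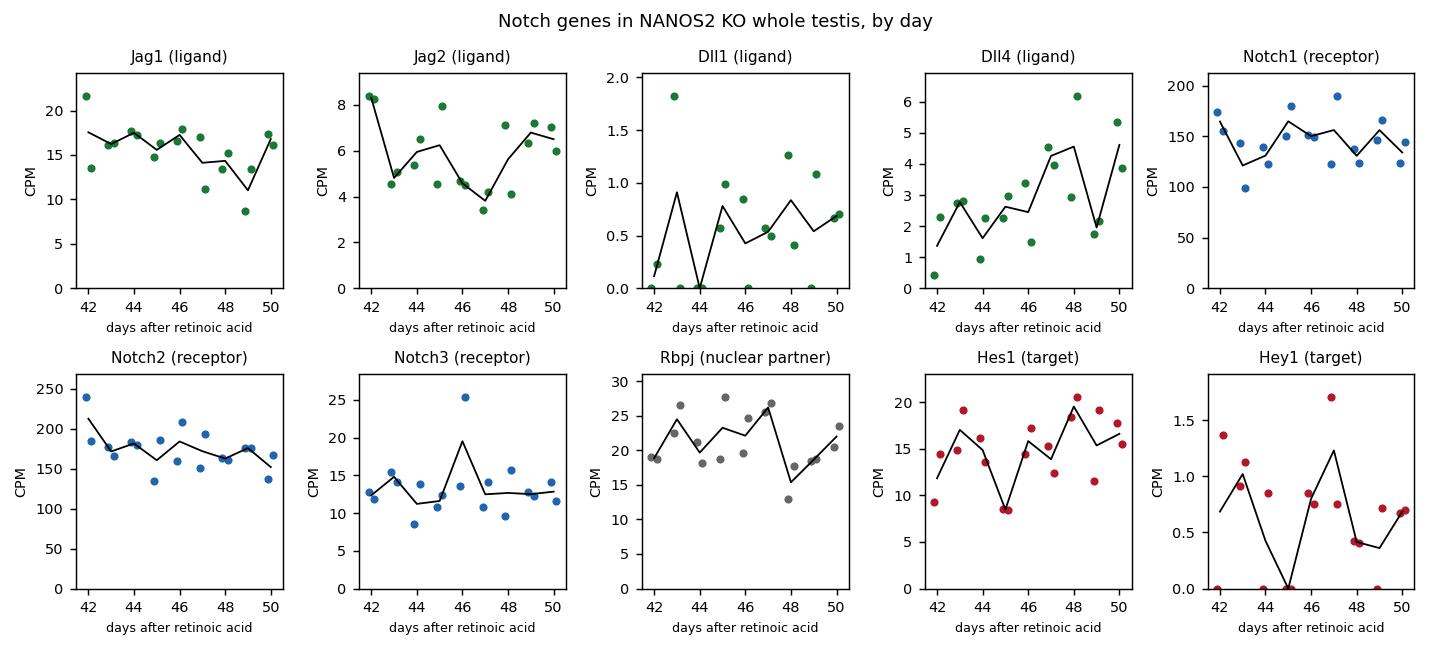
Level of the 10 Notch genes in NANOS2 KO whole testes, in CPM on the y axis (each panel has its own scale from 0), against days after retinoic acid on the x axis; points are libraries and lines join the means of the 2 libraries of a day. Notch1 stays between 98.8 and 189.5 CPM and 0 of the 8 members tested were called over days.

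Jag1 ranged from 8.68 to 21.6 CPM in the 18 NANOS2 KO libraries, with a median of 16.3, and Jag2 from 3.41 to 8.38, with a median of 5.68. For Jag1 the lowest was day 49 replicate 1, the library that stands apart, and the highest day 42 replicate 1, and the other library of each of these days stood at 13.4 and 13.5 CPM. Dll4 ranged from 0.441 to 6.18 CPM, which is 1 to 16 counts. It was the member at an unadjusted p under 0.05, with 0.15 log2 units a day (SE 0.06, adjusted p = 0.181, edgeR quasi-likelihood).

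Notch1 ranged from 98.8 to 189.5 CPM with a median of 145, a slope of -0.00 log2 units a day (SE 0.02, adjusted p = 0.979) and an adjusted p of 0.642 over days and 0.9 for the wave. Notch2 ranged from 135 to 240.0 CPM with a median of 176, and Notch3 from 8.55 to 25.4 with a median of 12.8, where day 46 replicate 2 was the highest and its partner had 13.6 CPM. Libraries of the same day could lie far apart, as Notch1 did at 122.8 and 189.5 CPM on day 47. Notch1 in sorted cells covered 4.58 to 135 CPM, but whether the variation differs between the sets was not tested.

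Rbpj ranged from 13.0 to 27.8 CPM. Hes1, with the smallest p over days among the members (unadjusted p = 0.054, adjusted p = 0.452), ranged from 8.43 to 20.6 CPM. Its 2 libraries of day 45 were at 8.5 and 8.4 CPM and those of day 48 at 18.5 and 20.6 CPM, from 15 to 50 counts each.

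The last comparison sets NANOS2 KO testes against sorted cells, which differ in genotype, in strain and in tissue, since the knockout libraries are whole testes, and these cannot be told apart. Of the 9 members tested 8 were called, 4 higher (Notch1, Notch2, Notch3 and Dll4) and 4 lower (Jag1, Jag2, Hes1 and Hey1) in NANOS2 KO testes. The background was 85.1% of 15777 genes, 38.0% higher and 47.0% lower, so the members' count stands near it, and the size of each difference is given. The median of all genes was -0.17. The 8 calls kept their direction and their side of the threshold under the 34 alternatives, including scaling by the Sertoli markers and by library totals alone.

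Both Jagged ligands were lower in NANOS2 KO testes. Jag1 averaged 15.6 ± 2.86 CPM (SD, n = 18) in NANOS2 KO testes, against 26.1 ± 11.9 CPM (SD, n = 10) in sorted cells, a log2 fold change of -0.99 (SE 0.13, adjusted p = 1.32e-07, edgeR quasi-likelihood). The knockout values, 8.68 to 21.6 CPM, lay below those of groups A, B, C and E. They overlapped those of group D, at 6.0 and 10.7 CPM, only through day 49 replicate 1 (8.68 CPM), the library that stands apart. The next lowest knockout library, day 47 replicate 2, had 11.2 CPM and lay above both D libraries. Jag2 averaged 5.85 ± 1.56 CPM in NANOS2 KO testes and 16.0 ± 12.1 CPM in sorted cells (-1.67, SE 0.22). Dll4 was at 2.91 ± 1.47 CPM in NANOS2 KO testes and 0.960 ± 0.721 CPM in sorted cells (1.41, SE 0.33, adjusted p = 3.27e-04). Dll1 had 26 counts in 18 NANOS2 KO libraries and 13 in 10 sorted libraries and was not tested.

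The 3 receptors were higher in NANOS2 KO testes. Notch1 averaged 145 ± 22.7 CPM there and 42.2 ± 47.2 CPM in sorted cells, a log2 fold change of 2.14 (SE 0.19, adjusted p = 1.49e-10), and the knockout range from 98.8 to 189.5 CPM overlapped only group D, at 135.1 and 103.2 CPM. The ratio of Notch1 to Jag1 counts was 6.03 to 17.0 in NANOS2 KO testes, overlapping the 9.63 and 22.7 of group D and above the 0.167 to 3.56 of the other groups. Notch2 averaged 175 ± 24.8 CPM in NANOS2 KO testes and 67.4 ± 28.5 CPM in sorted cells (1.08, SE 0.10), and every knockout library lay above every sorted one, from 135 CPM up against at most 113 CPM. Notch3 averaged 13.3 ± 3.56 CPM in NANOS2 KO testes and 1.38 ± 0.860 CPM in sorted cells (2.99, SE 0.24, adjusted p = 1.60e-11), the largest rise among the members, again with no overlap.

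Markers of vessel cells moved with the receptors and Dll4. The 10 endothelial markers summed to 130 to 233 CPM in NANOS2 KO testes and 9.55 to 33.7 CPM in sorted cells, and 9 of the 9 tested rose. The 10 mural and peritubular myoid markers summed to 1050 to 1320 CPM in NANOS2 KO testes and 322 to 470 CPM in sorted cells. Of these, 9 rose and Actg2 fell (log2 fold change -4.50), with 41.3 to 294 CPM in sorted cells and 5.04 to 13.6 CPM in NANOS2 KO testes. Actg2 and Mylk carried most of the sum in sorted cells, where Rgs5, Pdgfrb and Cspg4 stayed at or below 3.84 CPM. The 6 stroma markers summed to 1070 to 2180 CPM in NANOS2 KO testes and 16.9 to 55.8 CPM in sorted cells. None of the 10 endothelial markers was at 0 in every library of either set. The part of these cells in the levels of Notch1, Notch2, Notch3 and Dll4 was not tested.

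Rbpj did not pass the test, with 21.2 ± 3.94 CPM in NANOS2 KO testes, 17.6 ± 8.01 CPM in sorted cells and a log2 fold change of -0.06 (SE 0.16, adjusted p = 0.716). Its value depends on the scaling, being -0.48 (adjusted p = 0.00574) when libraries were scaled by the Sertoli markers and 0.32 (adjusted p = 0.0724) when they were scaled by their totals, with adjusted p from 0.00574 to 1 over the 34 alternatives. Both targets were lower in NANOS2 KO testes. Hes1 averaged 14.8 ± 3.69 CPM in NANOS2 KO testes and 23.5 ± 7.32 CPM in sorted cells (-1.05, SE 0.13, adjusted p = 5.49e-08), with overlapping ranges of 8.43 to 20.6 CPM and 16.0 to 40.2 CPM. Hey1 averaged 0.624 ± 0.500 CPM in NANOS2 KO testes, 31 counts with 5 of 18 libraries at 0, and 3.13 ± 0.783 CPM in sorted cells, 115 counts with no library at 0 (-2.94, SE 0.34, adjusted p = 2.58e-08). The ranges of Hey1 did not overlap, with at most 1.71 CPM in NANOS2 KO testes and at least 2.10 CPM in sorted cells, but a few counts a library carry that value. The sorted libraries also held germ cell transcripts, and their part in the levels of Jag1, Jag2, Hes1 and Hey1 was not tested.

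**Figure D5:**
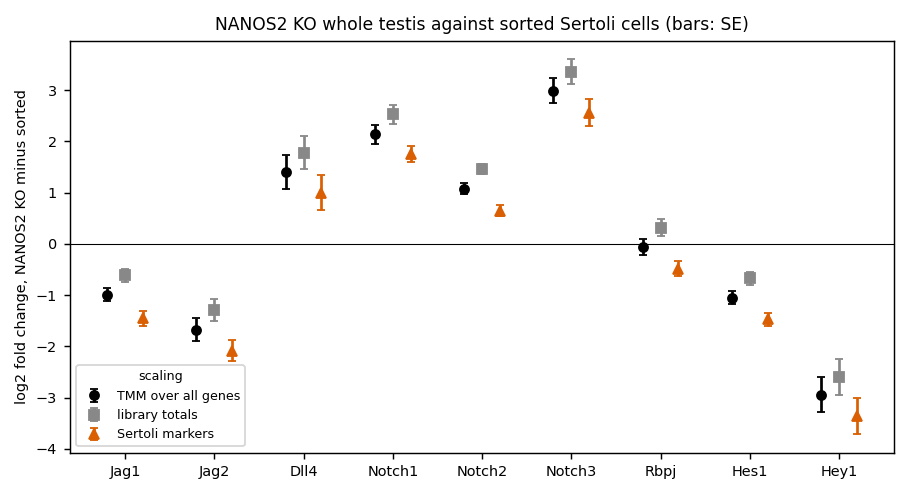
Log2 fold change of NANOS2 KO whole testes against sorted Sertoli cells (y axis) for the 9 members tested (x axis), under 3 scalings of the libraries; bars are 1 SE. The 4 higher and 4 lower members keep their direction in all 3 scalings, and Rbpj runs from -0.48 to 0.32.

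Of the 67 further pathway genes tested, 60 were called, 42 higher and 18 lower in NANOS2 KO testes, with a median log2 fold change of 0.57 against -0.17 over all genes, so that the share called is close to the background of 85.1%. The 4 rises with the smallest p were those of the corepressor Tle2 (3.51, SE 0.12), Cyp26b1 (2.33, SE 0.11), the coactivator Ep300 (1.76, SE 0.12) and Furin, a protease that matures the receptor (1.22, SE 0.09). The 4 falls were those of Cdkn1a (-3.76, SE 0.16), Tle3 (-1.63, SE 0.11), the histone deacetylase Hdac1 (-1.32, SE 0.09) and Cir1, a corepressor that binds RBPJ (-1.25, SE 0.11). Cyp26b1 averaged 392 ± 93.2 CPM in NANOS2 KO testes and 76.2 ± 58.7 CPM in sorted cells, and Gdnf 32.9 ± 4.82 and 5.28 ± 3.08 CPM (2.40, SE 0.17, adjusted p = 1.86e-12). In that comparison Cyp26b1 and Gdnf were higher and Hes1 and Hey1 lower. In group D Cyp26b1 was lower, as it was in group E, while Gdnf, Hes1 and Hey1 did not pass the test in D. Whether these levels are linked was not tested, nor was the part of the other cells of whole testes in Cyp26b1 and Gdnf. Heyl, a target with low counts in sorted cells, averaged 10.9 ± 2.47 CPM in NANOS2 KO testes and 1.75 ± 1.57 CPM in sorted cells (2.73, SE 0.25), unlike Hes1 and Hey1.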

How the data were processed

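Polyadenylated RNA of 28 mouse libraries was sequenced on an Ion Proton, per the labels' protocols. Per the submitters' processing notes, Bowtie, TopHat and Cufflinks were used with mm10; versions, the counting step, its use of strand and the annotation were not given in the sources used here. Raw counts per gene are held in the deposited tables. The tables deposited under the name FPKM hold CPM, since every value equals the count divided by its library total to within 0.0006. In the knockout counts, both columns of day 42 share 1 header, and replicate numbers were taken from the CPM columns with equal values.

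The 10 members and the pathway and marker lists were chosen with earlier results of these data known. Levels in the text are deposited CPM. Counts were filtered (filterByExpr), scaled (TMM) and tested by quasi-likelihood with edgeR 4.0.16 in R 4.3.3, separately for sorted libraries (14331 genes, biological coefficient of variation 0.268) and the knockout (13065, 0.122), and jointly (15777, 0.192), which is possible since both tables hold counts. Tests covered all genes, with Benjamini-Hochberg adjustment and a threshold of 0.05. Log2 CPM took a prior count of 2, and an SE is the fold change over the square root of its F. The method was tested on simulated data. Further pathway genes are named where called, at a mean log2 CPM of at least 3, up to 4 by smallest p in each direction of each comparison; 1 gene called in group D is counted but not reported here. Gene lengths come from GENCODE M21 (GRCm38), which holds 91.1% of the symbols.

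Other annotated genes overlap exons of Dll1, Dll4, Notch1 and Notch3 on the opposite strand and of Notch2 on the same strand, so their reads may be shared. The symbols of 27 rows look like dates and are not named.

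Alternatives were RLE scaling, no expression filter, a block for the replicate number, DESeq2 1.42.0, each library left out and, in the joint fit, scaling by the Sertoli markers. Scaling by library totals in the joint fit and by Sertoli markers in sorted cells were added after the data were seen. The Sertoli marker scaling used the summed counts of the 14 markers, in which Clu weighs most. Clu itself was higher in NANOS2 KO testes than in sorted cells (log2 fold change 0.74), which limits this scaling as a check. Marker lists of Sertoli, endothelial, mural and myoid, Leydig, macrophage, stroma, spermatogonia, spermatocyte, round and elongating spermatid genes were summed per library; the spermatogonia list came to 89.7 to 200.0 CPM in the knockout and 110.0 to 258 CPM in sorted cells (the knockout sum was mostly Kit, at 63.1 to 178 CPM, with Sohlh1 and Sall4 at 0 in all 18 libraries), and the round spermatid list to 3.39 to 11.2 and 130.0 to 333 CPM.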

Additional observations from a re-analysis of the deposited data

How the results depend on the processing

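The members' results, 10 comparisons under every alternative, gave 1429 values on the same side of the threshold, 13 calls lost and 21 gained, and no reversal of a called value; 58 of the 1429, from 18 results that were not called, changed sign, among them Notch1 in group C and Rbpj in NANOS2 KO testes against sorted cells. The calls of Notch1 in group D and over the stages, and the 8 of NANOS2 KO testes against sorted cells, were never lost. Counts of all genes called moved more. Over the stages 1159 genes were called, and 2764 with no filter and 2000 by DESeq2. Group A called 240 genes, and 901 with no filter, 477 with the replicate block and 527 by DESeq2. Group B called 6, and 307 with no filter, 24 with the block, 112 by DESeq2 and 32 with Sertoli marker scaling. Group C called 381, and 988 with no filter and 649 by DESeq2. Group D called 1236, and 1932 with no filter; with Sertoli marker scaling 21.9% of its called genes were higher, against 50.6%. Group E called 75, and 651 with no filter, 170 with the block and 294 by DESeq2. In NANOS2 KO testes the days called 76 genes, and 968 with no filter and 215 by DESeq2; the line called 112, and 65 with the block and 212 by DESeq2; the wave called 0 (1264 at an unadjusted p under 0.05), and 359 with no filter and 57 by DESeq2. The cause of these shifts was not tested. With each library left out in turn, the counts ran from 414 to 1557 over the stages, 85 to 304 in A, 0 to 81 in B, 161 to 598 in C, 295 to 1785 in D, 0 to 319 in E, 24 to 909 over days, 4 to 204 for the line, 0 to 9 for the wave and 13621 to 13955 for NANOS2 KO testes against sorted cells.

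Of NANOS2 KO testes against sorted cells, 44.7% of called genes were higher with TMM, 32.2% with Sertoli marker scaling and 56.3% with library totals, with medians of all genes of -0.17, -0.62 and 0.21. Same-numbered replicates deviated together (correlation over 0.1) in 6 of 10 pairs of stage groups and 1 of 36 pairs of days. No label says whether the numbers pair the samples, and they were not taken to do so. In the sorted libraries the median correlation was 0.2 and the highest 0.43, so the fits without the block leave out a deviation that same-numbered libraries partly shared. With the block, Jag2 was called in group D (1.23, adjusted p = 0.00995) and over the stages (adjusted p = 0.0109), and Notch1 in group A (-2.48, adjusted p = 0.0219). With 2 libraries a group and 1336742 to 5279746 counts a library, depth limits Dll1, Dll4, Notch3 and Hey1 most.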
